A study of Homo sapiens with 40 samples.

Results

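Feedback regulators of transforming growth factor β (TGFβ) signaling were examined as 9 genes out of the 60708 in each count table. The genes were chosen by symbol: the SMAD corepressors SKI, SKIL, TGIF1 and TGIF2, the membrane proteins PMEPA1, BAMBI and LDLRAD4, and the ubiquitin ligases SMURF1 and SMURF2. Each symbol matched 1 Ensembl gene of the files. The data were raw counts of 24 RNA-seq libraries in 8 groups of 3, and the question was how the RNA of these inhibitors differed with TGFβ, with HRAS transformation, with SLUG (SNAI2) knockout and with depletion of the SMADs.

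MI-spheres were grown from MCF-10A, an immortalized line of human breast epithelium, and MII-spheres from its HRAS-transformed derivative, both as 3D cultures on ultra-low attachment plates. Each was left untreated (Ctrl) or stimulated with TGFβ1 at 2.5 ng/ml for 16 h. The other 12 libraries came from MDA-MB-231, a triple-negative breast cancer line grown in monolayers with serum. Of these, WT cells were untreated, SLUG KO cells carried a CRISPR/Cas9 knockout aimed at the start of SNAI2 and were expanded from single-cell colonies, and wild-type cells were transiently transfected with a scrambled control siRNA (Csi) or with siRNAs against SMAD2, SMAD3 and SMAD4 (siSMAD2/3/4). No MDA-MB-231 library received added TGFβ. How many knockout clones entered the 3 SLUG KO libraries is not given in the sources used here. The siRNA libraries carry another sequencing batch label than the remaining 18, and MDA-MB-231 and the spheres also differ in culture form. Cell line, culture form and batch cannot be told apart between them, and only MI- and MII-spheres were tested against each other across lines.

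TGFβ binds a receptor complex that phosphorylates SMAD2 and SMAD3, which enter the nucleus with SMAD4 and regulate genes. Many of the induced genes encode inhibitors of the same pathway: SKI and SKIL (SnoN) bind SMADs at DNA and recruit histone deacetylases, PMEPA1 and LDLRAD4 keep SMAD2 and SMAD3 from the receptor, BAMBI is a pseudoreceptor without a kinase domain, and SMURF1 and SMURF2 mark receptors and SMADs for degradation. In mammary epithelium this negative feedback limits growth arrest and epithelial-mesenchymal transition in response to the cytokine.

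The libraries held between 14124688 and 38406952 counts in genes. Levels are given as CPM, counts scaled to library size with TMM factors. In 7 groups, replicates correlated with r of at least 0.991 (log2 CPM, genes with a mean of at least 1 CPM). WT replicate 2 stood apart, with r of 0.937 and 0.931 to the other WT libraries, which correlated with each other at 0.993, and with r of 0.925 to 0.927 to the Csi libraries. The changes in SLUG KO are therefore given with and without it. The targeted genes were checked first: siSMAD2/3/4 lowered SMAD2 from 90.5 ± 1.67 to 23.95 ± 0.37 CPM, SMAD4 from 55.4 ± 1.20 to 16.8 ± 1.11 CPM and SMAD3 from 266 ± 6.00 to 166 ± 6.82 CPM (mean ± SD, n = 3). HRAS was at 40.7 ± 1.01 CPM in MI Ctrl and 220.1 ± 4.09 CPM in MII Ctrl. SNAI2 RNA was higher in SLUG KO (61.8 ± 3.60 CPM) than in WT (28.3 ± 6.63 CPM), by 1.10 ± 0.22 on the log2 scale with all libraries (adjusted p = 0.0443) and by 0.94 ± 0.10 without WT replicate 2 (adjusted p = 6.34e-07). Counts over the whole gene do not show a small edit in its coding sequence. Summed basal epithelial markers lay between 1541 and 4462 CPM in spheres and between 218 and 674 CPM in MDA-MB-231 (up to 639 CPM without WT replicate 2), and summed mesenchymal-like markers between 177 and 410 CPM and between 3426 and 4270 CPM.

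The replicates are labelled as separate samples, and p-values measure the spread between them. Fewer cells of a type and less RNA per cell cannot be told apart in these bulk data. CPM in the text and plots were scaled over all 24 libraries, while each fold-change came from the libraries of its own comparison. The ratio of the printed CPM therefore differs from the fitted value for the 8 genes other than LDLRAD4, by up to 0.09 on the log2 scale for TGFβ in MI-spheres and by at most 0.06 in the other comparisons.

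The 9 genes differed in how far their levels spread over the 8 groups. On the per-length scale (RPKM), which allows genes to be compared, SKIL was the highest in MI Ctrl at 16.4, followed by PMEPA1 at 13.9, TGIF1 at 13.0, BAMBI at 10.9, SMURF1 at 9.31, TGIF2 at 7.79, SMURF2 at 5.73 and SKI at 3.06. LDLRAD4 was close to the detection limit in every group, with a highest group mean of 0.0318 RPKM. SMURF2 varied most between groups, from 41.4 CPM in MI Ctrl to 661 CPM in SLUG KO, a 16.0-fold span, and SMURF1, its close relative, varied least, from 54.8 to 109.2 CPM. The spans of PMEPA1 and SKI were 11.7-fold and 10.2-fold.

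**Figure D1:**
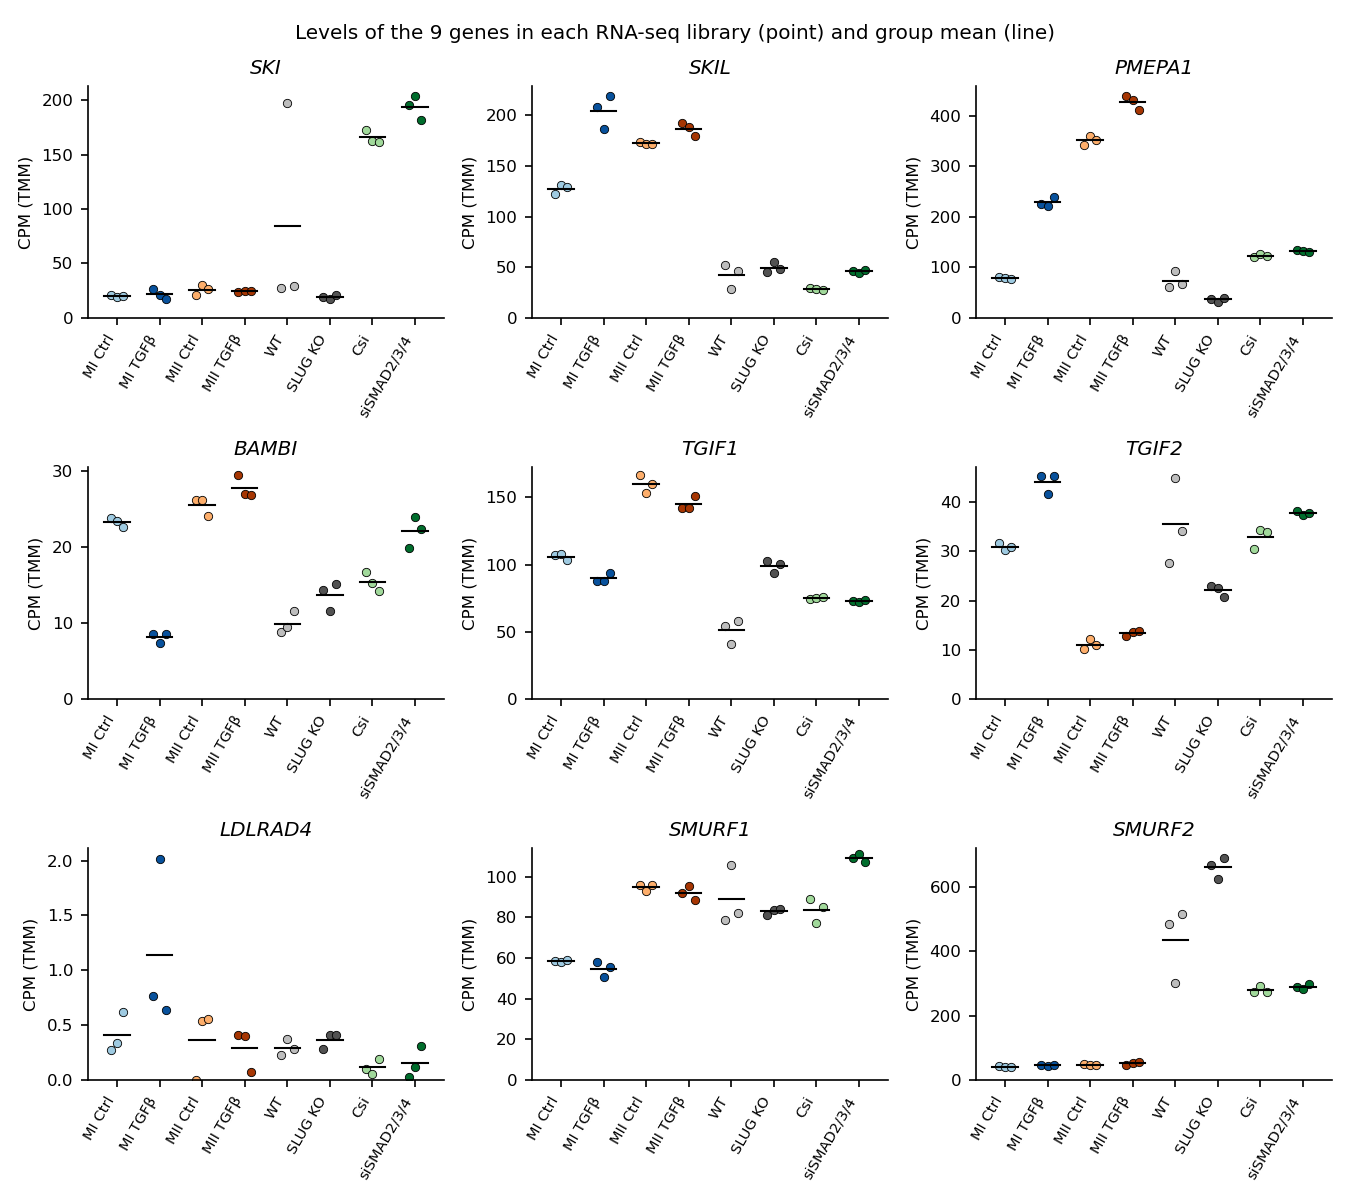
CPM (TMM-scaled over 24 libraries, linear axis from 0) of each of the 9 genes in every library (points) with the mean of 3 libraries (lines), by group. SMURF2 was higher in all 12 MDA-MB-231 libraries (at least 273 CPM) than in all 12 sphere libraries (at most 56.1 CPM), and 1 WT library lay far above the other 2 for SKI.

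PMEPA1 encodes a membrane adaptor that sequesters SMAD2 and SMAD3, and it is a direct TGFβ target in many cell types. The gene (ENSG00000124225.16) lies at chr20:57648392-57711536 on the minus strand (GRCh38, as are all positions here), and 5.98% of its exon bases are shared with the antisense lncRNA NKILA, whose reads cannot be told apart there because strand was ignored in counting. In MI-spheres its levels were 81.9, 79.7 and 76.9 CPM without and 225, 223 and 239 CPM with TGFβ. In MII-spheres they were 342, 360.2 and 353 CPM without and 439, 432 and 412 CPM with TGFβ. All stimulated libraries lay above their controls in both lines, and unstimulated MII-spheres already lay above stimulated MI-spheres.

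TGFβ raised PMEPA1 2.72-fold in MI-spheres (log2 fold-change 1.44 ± 0.05 SE, adjusted p = 9.74e-17, edgeR) and 1.18-fold in MII-spheres (0.24 ± 0.04, adjusted p = 8.92e-09). The difference between these responses was itself past the threshold (MII minus MI -1.19 ± 0.06, adjusted p = 4.09e-21). Without TGFβ, PMEPA1 was 4.46-fold higher in MII- than in MI-spheres (2.16 ± 0.04, adjusted p = 7.25e-65). NKILA moved alongside, from 1.20 ± 0.29 to 2.67 ± 0.47 CPM in MI- and from 4.08 ± 0.19 to 6.62 ± 0.44 CPM in MII-spheres; its part in the PMEPA1 counts was not tested.

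BAMBI encodes a truncated receptor-like protein that binds TGFβ family receptors and blocks their signaling. It (ENSG00000095739.11) lies at chr10:28677510-28682932 on the plus strand. Its levels in MI-spheres were 23.8, 23.4 and 22.6 CPM without and 8.56, 7.34 and 8.55 CPM with TGFβ, a fall in every stimulated library. In MII-spheres they were 26.1, 26.2 and 24.1 CPM without and 29.4, 27.0 and 26.8 CPM with TGFβ, with no overlap but little distance between the groups.

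TGFβ lowered BAMBI 3.03-fold in MI-spheres (-1.60 ± 0.09, adjusted p = 1.04e-12), and the change in MII-spheres missed the threshold (0.09 ± 0.07, adjusted p = 0.332). The responses differed by 1.70 ± 0.12 on the log2 scale (MII minus MI, adjusted p = 1.53e-16). BAMBI was the gene of the 9 with the largest difference in response among those past the threshold. Unstimulated levels of the lines differed by 0.14 ± 0.07 (adjusted p = 0.0755).

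The responses of BAMBI and PMEPA1 differed most between the lines among the genes past the threshold, and the RefSeq sequence (GRCh38.p14) before their transcription starts is shown for that reason. The windows hold the 250 bases before a start, written 5′ to 3′ on the strand of the gene, with CAGAC or its reverse complement GTCTG, the core letters of a SMAD-binding element, in capitals. BAMBI has 1 window in the table, at chr10:28677271-28677520, and PMEPA1 has 4, of which those at chr20:57710578-57710827 (a) and chr20:57710016-57710265 (b) are given.
BAMBI: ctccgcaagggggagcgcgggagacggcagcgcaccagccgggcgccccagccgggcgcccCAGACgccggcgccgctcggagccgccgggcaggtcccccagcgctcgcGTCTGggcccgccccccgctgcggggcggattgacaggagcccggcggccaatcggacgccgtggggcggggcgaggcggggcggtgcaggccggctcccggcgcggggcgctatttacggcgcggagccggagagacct
PMEPA1 window a: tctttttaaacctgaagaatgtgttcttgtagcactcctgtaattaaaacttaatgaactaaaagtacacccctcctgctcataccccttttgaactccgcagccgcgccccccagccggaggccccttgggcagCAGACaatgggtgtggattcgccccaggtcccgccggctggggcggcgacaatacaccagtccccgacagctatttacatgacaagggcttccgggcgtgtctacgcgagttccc
PMEPA1 window b: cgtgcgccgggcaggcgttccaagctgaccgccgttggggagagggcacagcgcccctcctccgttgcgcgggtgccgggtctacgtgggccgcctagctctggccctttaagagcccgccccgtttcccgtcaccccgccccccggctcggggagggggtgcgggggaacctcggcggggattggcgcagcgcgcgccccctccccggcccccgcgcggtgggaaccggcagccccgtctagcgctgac
BAMBI carries 1 CAGAC on each strand, 185 to 189 and 136 to 140 bases before the start. PMEPA1 window a carries 1 and window b none. Of the PMEPA1 windows not shown, that at chr20:57690687-57690936 carries 1 and that at chr20:57711473-57711722 none. Of the 26 windows of the 8 genes that matched (all but SKI), 14 held this motif, as did 13345 of all 35116 promoter windows of the same length. The GC-rich SMAD motif GGCGC (or GCGCC) was in 20 of the 26 and in 44.5% of all, and CAGGTG (or CACCTG), an E-box that SNAI2 is known to bind, was in 4 of the 26 and in 17.5% of all. Several windows of 1 gene share bases, and a match of 5 letters is not evidence of binding.

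LDLRAD4 encodes a relative of PMEPA1 that also sequesters SMADs, and the gene (ENSG00000168675.19) lies at chr18:13217498-13652755 on the plus strand. The gene shares 696 and 337 exon bases with 2 unnamed genes on the opposite strand. Its raw counts were 7, 7 and 12 in MI Ctrl, 14, 45 and 15 in MI TGFβ, 0, 16 and 10 in MII Ctrl, and 6, 6 and 1 in MII TGFβ. A change of 1.44 ± 0.47 with TGFβ in MI-spheres passed the threshold (adjusted p = 0.0129), and without MI TGFβ replicate 2, the library with 45 counts, it was 0.72 (adjusted p = 0.213). DESeq2 gave an adjusted p of 0.0587 with all libraries. The filter on low counts left the gene out of the tests in MII-spheres, SLUG KO and siSMAD2/3/4. Without the filter, its change in SLUG KO was 0.36 ± 0.59 (adjusted p = 0.773).

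SKIL encodes SnoN, a corepressor that TGFβ first removes by protein degradation and then re-induces at the RNA level. It (ENSG00000136603.14) lies at chr3:170357678-170396835 on the plus strand. Its levels in MI-spheres were 121.9, 131.2 and 128.7 CPM without and 208, 186 and 219 CPM with TGFβ. In MII-spheres they were 173, 171 and 172 CPM without and 192, 189 and 179 CPM with TGFβ. The MI groups were far apart, whereas the lowest stimulated MII library was only slightly above the highest control.

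TGFβ raised SKIL 1.52-fold in MI-spheres (0.60 ± 0.06, adjusted p = 3.65e-09). In MII-spheres the change was 0.08 ± 0.04 (adjusted p = 0.0663), and the difference in response was -0.51 ± 0.07 (adjusted p = 5.05e-08). As with PMEPA1, the unstimulated level was higher in MII-spheres, here 1.36-fold (0.45 ± 0.04, adjusted p = 4.10e-18).

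SKI (ENSG00000157933.10) encodes the corepressor related to SKIL and lies at chr1:2228319-2310213 on the plus strand. It was between 17.8 and 30.6 CPM in all 12 sphere libraries, and the TGFβ groups overlapped their controls in both lines (0.03 ± 0.11, adjusted p = 0.831 in MI; -0.16 ± 0.08, adjusted p = 0.0982 in MII). It was 1.33-fold higher in unstimulated MII- than MI-spheres (0.41 ± 0.08, adjusted p = 2.51e-05). Whether its response to TGFβ differed from that of SKIL was not tested.

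TGIF1 and TGIF2 encode homeodomain corepressors that compete with coactivators for SMAD2 and SMAD3. TGIF1 (ENSG00000177426.22) lies at chr18:3411608-3459978 and TGIF2 (ENSG00000118707.11) at chr20:36573488-36593950, both on the plus strand. In MI-spheres they moved in opposite directions with TGFβ. TGIF1 was between 103.1 and 107.5 CPM in the 3 MI Ctrl libraries and at 87.5, 88.1 and 94.0 CPM in MI TGFβ, and at 166, 153 and 160.3 CPM in MII Ctrl and 142, 142 and 151 CPM in MII TGFβ, so that every stimulated library was below its controls. The change was -0.32 ± 0.05 in MI-spheres (adjusted p = 1.99e-05) and -0.17 ± 0.04 in MII-spheres (adjusted p = 2.37e-04), and the difference in response was not past the threshold (0.15 ± 0.07, adjusted p = 0.105).

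TGIF2 was at 31.8, 30.2 and 30.9 CPM in MI Ctrl and at 45.4, 41.6 and 45.4 CPM in MI TGFβ, a rise of 0.43 ± 0.07 (adjusted p = 9.34e-06). In MII-spheres it was at 10.1, 12.1 and 10.9 CPM without and 12.8, 13.7 and 13.7 CPM with TGFβ (0.22 ± 0.11, adjusted p = 0.0664). TGIF2 was the only one of the 9 genes called lower in unstimulated MII- than in MI-spheres, by 2.74-fold (-1.45 ± 0.08, adjusted p = 3.42e-29). TGIF1 was 1.52-fold higher in unstimulated MII-spheres (0.60 ± 0.04, adjusted p = 2.57e-24). TGIF2 shares 7.75% of its exon bases with a readthrough gene on the same strand, which had at most 1 count in any sphere library.

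SMURF1 and SMURF2 encode HECT-type ubiquitin ligases that SMAD7 brings to the receptor. SMURF1 (ENSG00000198742.10) lies at chr7:99027440-99144108 and SMURF2 (ENSG00000108854.16) at chr17:64542282-64662307, both on the minus strand. SMURF2 shares 2.50% of its exon bases with CEP95 on the opposite strand. SMURF1 was at 58.4, 57.9 and 59.2 CPM in MI Ctrl and at 58.2, 50.8 and 55.5 CPM in MI TGFβ, with overlapping groups. The fitted change was -0.18 ± 0.06 (adjusted p = 0.0184), and it missed the threshold in 5 of 13 alternatives, including DESeq2 (adjusted p = 0.171). SMURF1 shares 11.7% of its exon bases with TRRAP on the opposite strand, which was at 59.6 ± 3.16 CPM in MI Ctrl and 49.8 ± 9.77 CPM in MI TGFβ; its part in the SMURF1 counts was not tested. SMURF2 did not pass the threshold for TGFβ in MI-spheres (0.05 ± 0.07, adjusted p = 0.522) or MII-spheres (0.08 ± 0.06, adjusted p = 0.256). Both ligases were higher in unstimulated MII- than MI-spheres, SMURF1 by 1.64-fold (0.71 ± 0.05, adjusted p = 2.11e-24) and SMURF2 by 1.16-fold (0.21 ± 0.06, adjusted p = 7.87e-04).

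In all, TGFβ changed 7 of the 9 genes in MI-spheres, where 56.0% of all genes tested were called. Of these, 4 rose (28.7% of all genes) and 3 fell (27.4%). The stimulated and control ranges were apart for 6 of the 9 in MI-spheres (62.7% of all genes) and for 5 of 8 in MII-spheres (61.7%). With an absolute log2 fold-change above 1, 3 were DEGs (PMEPA1, LDLRAD4 and BAMBI), against 13.5% of all genes. In MII-spheres 2 of the 8 genes tested were called (PMEPA1 upward, TGIF1 downward), against 57.7% of all genes, and no change of these 8 exceeded 1 on the log2 scale, where 10.6% of all genes were DEGs. The median change of the 9 genes in MI-spheres was 0.05, beside -0.02 over all genes, and that of the 8 genes in MII-spheres was 0.08, beside -0.02. With library totals alone as scaling, the median of all genes shifted to -0.15 in both lines; PMEPA1, SKIL, TGIF2, LDLRAD4, BAMBI, TGIF1 and SMURF1 kept their direction in MI-spheres under it, while the small positive values of SKI and SMURF2 in MI- and of SKIL, BAMBI and SMURF2 in MII-spheres became negative. The summed basal epithelial markers rose in the same libraries, from between 2462 and 2524 to between 4244 and 4462 CPM in MI-spheres. In MII-spheres they rose from between 1541 and 1592 to between 2840 and 2981 CPM. The summed mesenchymal-like markers rose too, from between 206.5 and 214.7 to between 374.8 and 409.6 CPM in MI-spheres. In MII-spheres these rose from between 176.9 and 182.8 to between 247.5 and 271.1 CPM. The part of either marker set in the changes of the 9 genes was not tested.

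Of the 9 genes, 3 differed in response between the lines (BAMBI, PMEPA1 and SKIL), against 22.5% of all genes tested. Unstimulated MII- and MI-spheres differed in 7 of 9, against 64.4% of all genes, with 6 higher in MII-spheres (31.8% of all genes) and 1, TGIF2, lower (32.6%). PMEPA1 and TGIF2 were the 2 DEGs (20.1% of all genes), and the ranges were apart for 8 of 9 genes (67.6%). The median difference was 0.41 for the 9 genes and 0.02 for all genes. The 2 TGFβ comparisons and that of the unstimulated lines share their control libraries.

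**Figure D2:**
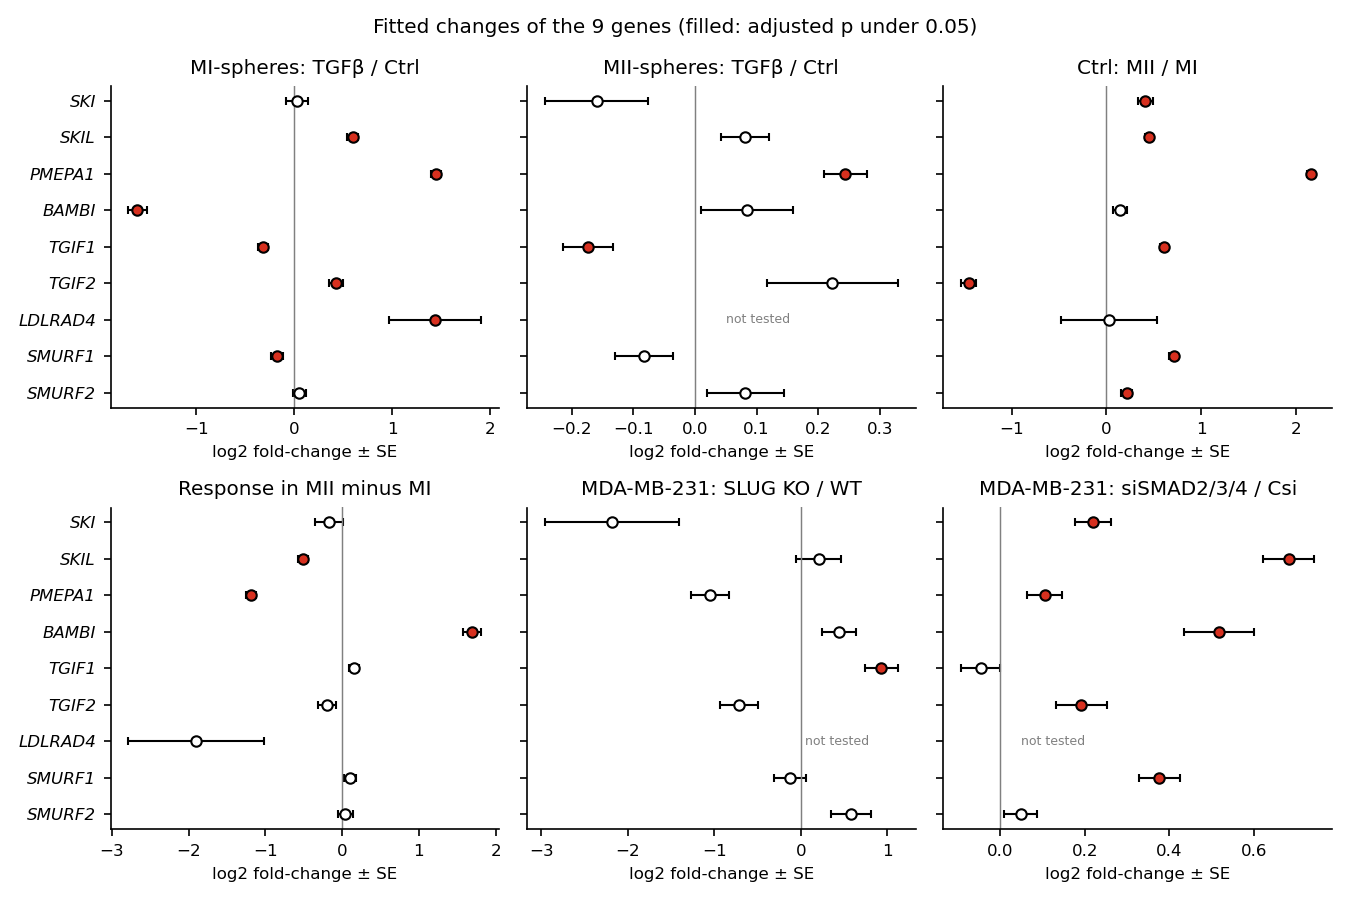
Fitted log2 fold-changes with SE (horizontal axes, which differ in range between panels) of the 9 genes in the 6 comparisons, each from 3 libraries per group; filled points have an adjusted p under 0.05. PMEPA1 and BAMBI had the largest rise and the largest fall with TGFβ in MI-spheres (1.44 and -1.60). With siSMAD2/3/4, 6 of 8 genes were called higher (16.3% of all genes).

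Depletion of SMAD2, SMAD3 and SMAD4 in MDA-MB-231 left 6 of the 8 genes tested higher and none lower, where 36.1% of all genes were called, 16.3% higher and 19.8% lower. The ranges were apart for 7 of the 8 (44.4% of all genes). SKIL was at 29.7, 28.3 and 27.6 CPM in Csi and at 46.3, 43.8 and 47.6 CPM in siSMAD2/3/4. BAMBI was at 16.7, 15.3 and 14.2 CPM in Csi and at 19.8, 23.9 and 22.4 CPM in siSMAD2/3/4. SMURF1 was at 89.0, 77.5 and 85.2 CPM in Csi and at 109.2, 111.2 and 107.2 CPM in siSMAD2/3/4. For all 3 genes every depleted library lay above every control library.

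SKIL was 1.60-fold higher (0.68 ± 0.06, adjusted p = 2.64e-12), BAMBI 1.43-fold (0.52 ± 0.08, adjusted p = 2.48e-06) and SMURF1 1.30-fold (0.38 ± 0.05, adjusted p = 2.40e-08). SKI (0.22 ± 0.04, adjusted p = 6.94e-05), TGIF2 (0.19 ± 0.06, adjusted p = 0.0103) and PMEPA1 (0.11 ± 0.04, adjusted p = 0.0400) differed less, and PMEPA1 missed the threshold in 7 of 13 alternatives. TGIF1 (-0.05 ± 0.05, adjusted p = 0.478) and SMURF2 (0.05 ± 0.04, adjusted p = 0.364) did not pass the threshold. The median of the 8 genes was 0.21, beside 0.00 over all genes.

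The batch labels give the siRNA libraries 1 flow cell, but the file names contradict them and place siSMAD2/3/4 replicates 1 and 2 on another flow cell than replicate 3 and the Csi libraries. With flow cell as a term, SKIL (0.75), BAMBI (0.55) and SMURF1 (0.36) stayed past the threshold, whereas SKI (0.14, adjusted p = 0.070), TGIF2 (0.20, adjusted p = 0.0722) and PMEPA1 (0.11, adjusted p = 0.179) did not. In that fit 4406 of 17696 genes tested were called, against 6389 of 17696 without the term. Which of the labels and names is right was not tested. Replicate 3, from the flow cell of the Csi libraries, was above the highest Csi library for 7 of the 8 genes tested, the 6 called genes and SMURF2, and for 33.7% of all genes.

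Levels in unstimulated MDA-MB-231 WT cells depended on the library. SKI was at 27.5, 197 and 29.3 CPM in WT replicates 1, 2 and 3, and SMURF2 at 485, 301 and 516 CPM. In Csi, a wild-type culture of another batch, SKI was at 173, 163 and 162 CPM and SMURF2 at 273, 293 and 273 CPM, so that WT replicate 2 was nearer to Csi than to its own group for both. WT replicate 2 lay outside the range of the other WT libraries for 7 of the 8 genes tested, as it did for 88.8% of all genes. TRRAP, which overlaps SMURF1, was at 124, 387 and 78.6 CPM in the same 3 libraries.

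With all 6 libraries, TGIF1 was the only one of 8 genes tested that was called in SLUG KO (3.14% of all genes were called). It was at 54.6, 40.6 and 57.7 CPM in WT and at 102.8, 94.0 and 100.2 CPM in SLUG KO, a 1.91-fold difference (0.93 ± 0.19, adjusted p = 0.0497). PMEPA1 was at 62.1, 92.8 and 67.1 CPM in WT and at 38.2, 31.6 and 39.6 CPM in SLUG KO (-1.05 ± 0.22, adjusted p = 0.0522). Both values were at the edge of the threshold. The ranges of WT and SLUG KO were apart for 6 of the 8 genes (31.0% of all genes), and without WT replicate 2 also for 6 (52.5% of all genes). Both counts include BAMBI, for which WT replicate 3 and SLUG KO replicate 2 were each at 11.55 CPM after rounding.

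Without WT replicate 2, 31.4% of all genes and 6 of these 8 were called. TGIF1 (0.81 ± 0.09, adjusted p = 1.11e-06), SMURF2 (0.39 ± 0.09, adjusted p = 0.00270) and BAMBI (0.42 ± 0.15, adjusted p = 0.0343) were higher in SLUG KO. PMEPA1 (-0.84 ± 0.10, adjusted p = 4.48e-06), SKI (-0.59 ± 0.11, adjusted p = 3.62e-04) and TGIF2 (-0.49 ± 0.11, adjusted p = 0.00190) were lower, the last with a WT range of 27.6 to 34.2 CPM and a SLUG KO range of 20.8 to 22.9 CPM. SKIL (-0.00 ± 0.11, adjusted p = 0.999) and SMURF1 (0.03 ± 0.08, adjusted p = 0.798) were not called. The SKI value changed most, from -2.19 ± 0.77 with all libraries, and all 6 genes kept their direction. Leaving out WT replicate 1 or 3 in place of 2 left 0 of the 8 called by edgeR, where 0.924% and 1.77% of all genes were called, with 4 and 6 of the 8 at an unadjusted p under 0.05. Leaving out any 1 SLUG KO library also left 0 of the 8 called, with 2 or 3 at an unadjusted p under 0.05, where 0.704%, 0.665% and 0.708% of all genes were called. With all 6 libraries, DESeq2 called 3 (TGIF1 higher, SKI and PMEPA1 lower) and 5.23% of all genes.

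**Figure D3:**
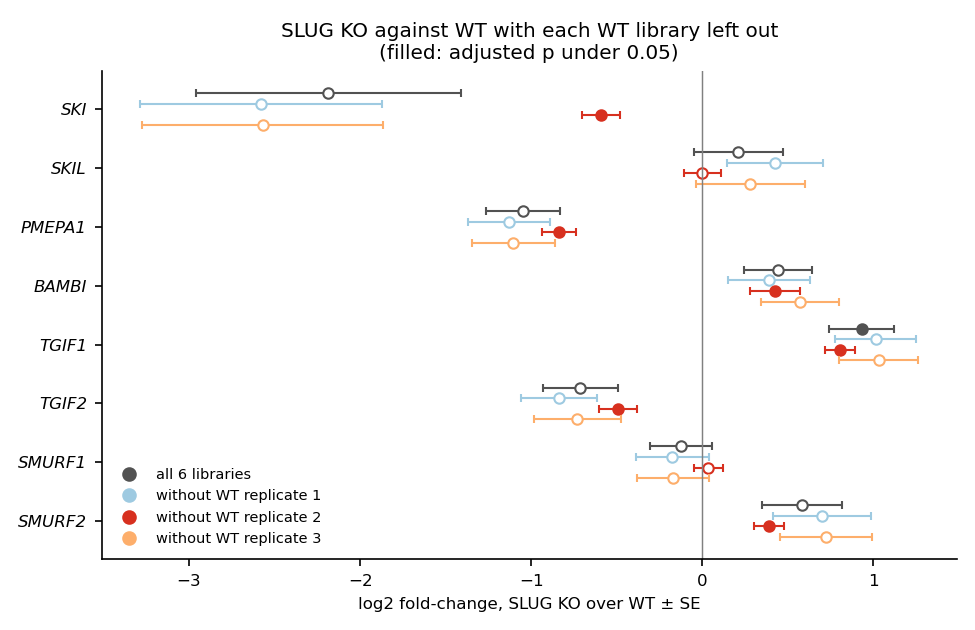
Log2 fold-changes (SLUG KO over WT, with SE) of 8 genes with all 6 libraries or with 1 WT library left out; filled points have an adjusted p under 0.05. Leaving out WT replicate 2 moved SKI from -2.19 to -0.59 and narrowed the errors of all 8 genes.

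The wider pathway was described by lists of known genes, counted in the same fits. Of 18 ligands, receptors and SMADs, 4 were higher and 6 lower with TGFβ in MI-spheres and 7 higher and 4 lower in MII-spheres, shares near the 56.0% and 57.7% of all genes called. The receptors TGFBR1 (0.42 ± 0.06 in MI, 0.34 ± 0.05 in MII) and TGFBR2 (0.41 ± 0.06 and 0.34 ± 0.04) rose in both lines. SMAD3, the signal transducer, fell by 1.27 ± 0.06 in MI- and by 0.77 ± 0.04 in MII-spheres. Before stimulation, 8 of the 18 were higher and 5 lower in MII- than in MI-spheres, beside 31.8% and 32.6% of all genes. On the log2 scale, TGFBR2 was 1.33 ± 0.04 higher and the ligand TGFB2 5.64 ± 0.09 higher, while the ligand TGFB1 was 1.45 ± 0.12 lower.

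Other inhibitors of the pathway also moved both ways, with 6 of 15 higher and 5 lower in MI-spheres and 4 of 14 higher and 5 lower in MII-spheres. Of all genes, 56.0% and 57.7% were called in these comparisons. The coreceptor CD109 rose (1.19 ± 0.06 in MI, 0.59 ± 0.05 in MII), and the phosphatase subunit PPP1R15A (GADD34) fell (-1.74 ± 0.06 and -1.05 ± 0.05). SMAD6, an inhibitory SMAD of bone morphogenetic protein (BMP) signaling, fell by 1.65 ± 0.11 in MI- and by 0.55 ± 0.09 in MII-spheres and was 0.83 ± 0.08 higher with siSMAD2/3/4. In SLUG KO it fell by 2.23 ± 0.32, and by 1.94 ± 0.23 without WT replicate 2. SMAD7, the partner of SMURF1 and SMURF2, was at 11.7 ± 0.23 CPM in MI Ctrl and 13.4 ± 1.22 CPM in MI TGFβ and did not pass the threshold in MI- (0.11, adjusted p = 0.375) or MII-spheres (-0.14, adjusted p = 0.319).

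Among 16 other ubiquitin enzymes 5 were higher and 7 lower in MI-spheres and 8 higher and 4 lower in MII-spheres. Here too 56.0% and 57.7% of all genes were called. NEDD4L, a ligase for activated SMAD2 and SMAD3, fell by 1.12 ± 0.06 in MI- and by 0.28 ± 0.04 in MII-spheres, and the responses differed (0.86 ± 0.07, adjusted p = 2.22e-14). Of 9 corepressor partners of SKI, SKIL and TGIF proteins, 5 were higher and 2 lower in MI-spheres and 6 higher and 2 lower in MII-spheres. The shares of all genes called were the same 56.0% and 57.7%. The deacetylases HDAC2 and HDAC3 rose and the corepressor NCOR1 fell in both lines.

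Of 19 TGFβ/SMAD3 target genes tested, 10 were higher and 3 lower in MI-spheres and 11 higher and 5 lower in MII-spheres, where 28.7% and 27.4% of all genes were higher and lower in MI-spheres and 57.7% were called in MII-spheres. Over this list 13 responses were lower and 4 higher in MII- than in MI-spheres, where 22.5% of all genes were called. Of 8 BMP target genes, 6 fell with TGFβ in MI-spheres, where 27.4% of all genes were lower. In MII-spheres 5 fell, where 57.7% of all genes were called in either direction. With siSMAD2/3/4 6 were higher, as were 16.3% of all genes. In SLUG KO, 5 of 18 TGFβ/SMAD3 target genes tested were lower and 0 higher with all libraries (3.14% of all genes were called), and 5 of 19 were lower and 5 higher without WT replicate 2 (31.4%). With the replicate block, without WT replicate 1 or without any 1 SLUG KO library, 2 were lower and 0 higher.

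**Figure D4:**
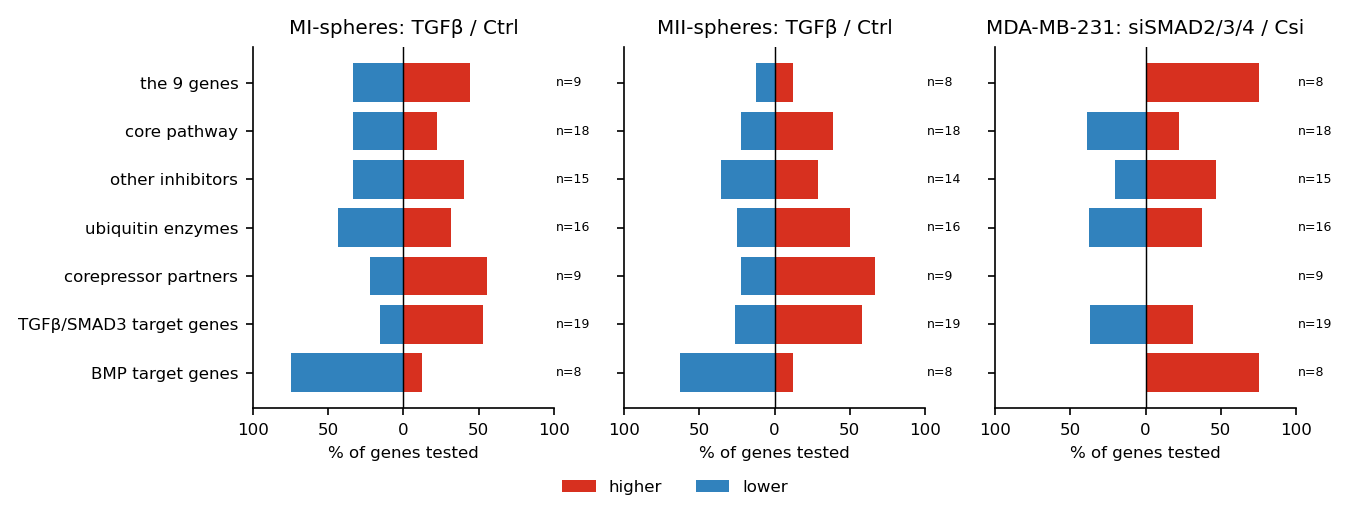
Share of the tested genes of each list (n beside the bars) that were called higher (right) or lower (left) at an adjusted p under 0.05, for TGFβ in MI- and MII-spheres and for siSMAD2/3/4. Of the 9 genes, 4 were higher and 3 lower in MI-spheres, and with siSMAD2/3/4 6 of 8 were higher. Of all genes tested, 28.7% were higher and 27.4% lower in MI-spheres, and 57.7% were called in MII-spheres. With siSMAD2/3/4 16.3% were higher and 19.8% lower.

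Over the 24 libraries, the protein-coding genes whose log2 CPM followed each gene most closely among 12871 genes were CIC, SF3A1 and AHDC1 for SKI (Pearson's r up to 0.990), ZDBF2 for SKIL (0.984), CHRM3 for PMEPA1 (0.981) and RGS4 and MPDZ for SMURF2 (both 0.993). The closest genes to TGIF1, TGIF2 and SMURF1 were IFNGR2 (0.959), RCOR1 (0.959) and HIP1R (0.953). BAMBI had looser companions, FRMD3 at 0.897, GBA2 at 0.868 and KLF4 at 0.861, and LDLRAD4 looser still, with TMEM217 at 0.753. The 24 points fall into 8 groups that share cell line, batch and treatment, so that these values describe common group levels.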

How the data were processed

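RNA was sequenced from 24 samples as total RNA after ribosomal depletion, and the other 16 samples of the series (ATAC-seq) were not analysed here. The raw counts per gene that the authors deposited came from featureCounts (Subread 2.0.0) over GENCODE release 38, with strand ignored, both mates required and a mapping quality of at least 30, after Trimmomatic and STAR alignment to GRCh38. Symbols came from GENCODE release 44 (99.6% of genes). Total counts ranged from 14124688 to 38406952.

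For every comparison, edgeR 4.0.16 in R 4.3.3 (filterByExpr, TMM, robust quasi-likelihood F-test) was run on the libraries of its groups. P-values were adjusted with Benjamini-Hochberg over all genes tested, genes under 0.05 were called, and DEGs also had an absolute log2 fold-change above 1. SE is the absolute log2 fold-change over the square root of F. The difference in response is the interaction term over 12 sphere libraries. RPKM are CPM per kilobase of exon. An exact permutation test of 3 against 3 cannot give a p under 0.1. The fits were tested on simulated data with known changes.

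All 9 genes are named in each comparison. Of each list, at most 2 genes in each direction with the smallest adjusted p are named, besides SMAD2, SMAD3, SMAD4, SNAI2 and HRAS, and for likeness up to 3 genes for each of the 9. Some genes that this rule names are not reported here. SMAD7, overlapping genes and the inhibitors described across comparisons were named after their values were seen. The genes and lists were chosen with earlier results of these data known. Alternatives were DESeq2 1.42.0, its size factors, library totals alone, 2 other count filters, a replicate block, all 12 sphere libraries in 1 fit, flow cell, and leaving out each replicate.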

Additional observations from a re-analysis of the deposited data

Results flagged for a closer look

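The responses of 3 genes to TGFβ differed between MII- and MI-spheres by a test of the difference itself (edgeR interaction term, 12 libraries). BAMBI differed by 1.70 (MII minus MI, log2): it fell in MI-spheres in 3 of 3 libraries, and its 3 stimulated MII libraries lay above their controls without passing the threshold. PMEPA1 differed by -1.19, with a rise in both lines that was smaller in MII-spheres. SKIL differed by -0.51, with a rise in MI-spheres and a change in MII-spheres that missed the threshold. No cause of these differences was tested. Groups of 3 libraries are too small for a test of single outlying libraries.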

How the results depend on the processing

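Over all alternatives, 628 of 702 log2 fold-changes of the 9 genes kept their direction and their side of the threshold, 28 lost the call, 26 gained it and 20 changed sign. The number of genes called for TGFβ in MII-spheres was 2. It was 4 with library totals alone (SKI and SMURF1 added) and with at least 10 counts in every library (the same 2 added). With all 12 sphere libraries in 1 fit it was also 4 (SKIL and TGIF2 added). Of all genes tested, 9460 of 16396 were called in the main fit and 9622 of 16396 with library totals alone. With at least 10 counts 8539 of 14239 were called, and with the 12 libraries in 1 fit 9264 of 18591. The number whose response differed between the lines was 3, and 3 to 5 with 1 library left out. The 5 came without MI TGFβ replicate 3 (SKI and LDLRAD4 added), where 4800 of 19330 genes tested were called, against 4185 of 18591 in the main fit. For SLUG KO against WT the number was 1, and 3 by DESeq2 (SKI, TGIF1 and PMEPA1). It was 0 without a count filter and 0 with at least 10 counts (4 and 5 of the genes at an unadjusted p under 0.05). With 1 library left out it was 0 to 6, the 6 without WT replicate 2. Of all genes tested, 548 of 17428 were called in the main fit, 1204 of 23008 by DESeq2 and 5621 of 17909 without WT replicate 2. Without a filter 788 of 37633 were called, and with at least 10 counts 240 of 14872. With library totals alone the number stayed 1, but the gene was PMEPA1 (adjusted p = 0.0439) in place of TGIF1 (0.0688). For siSMAD2/3/4 the number was 6, and 3 with flow cell as a term, where 4406 of 17696 genes tested were called. PMEPA1 missed the threshold in 7 of 13 alternatives. SKI passed it in 12 of 13 and TGIF2 in 12 of 14. The causes were not tested.

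Signs changed only for values that were not called in the main comparison. With library totals alone, SKI (-0.11) and SMURF2 (-0.088) in MI- and SKIL (-0.050), BAMBI (-0.047) and SMURF2 (-0.050) in MII-spheres were negative. SKI in MI-spheres was -0.0045 with at least 10 counts and -0.11 to 0.18 with 1 library left out. LDLRAD4 in MII against MI Ctrl was -0.12 by DESeq2, -0.035 without a filter and -0.40 to 0.45 with 1 library left out. The SMURF2 difference in response was -0.062 to 0.094 with 1 library left out, and in SLUG KO, SKIL was -0.00023 to 0.42 and SMURF1 -0.18 to 0.035.

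Replicate numbers did not pair the libraries: correlations of same-numbered deviations were between -0.185 and 0.0517. With the replicate number as a block, the counts of called genes were 7, 2, 7 and 3 in the sphere comparisons as before. They were 0 for SLUG KO and 5 for siSMAD2/3/4 (PMEPA1 lost), where 239 of 17428 and 6372 of 17696 genes tested were called. With the block, LDLRAD4 in MII against MI Ctrl was -0.16. LDLRAD4, with 0 to 45 counts per library, is limited by depth.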
